A study of Homo sapiens with 18 samples.

Results

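Replication-dependent histone genes were followed across 6 lines made from MCF-10A, human breast epithelial cells that are not malignant. They were taken as the table entries with a symbol starting with HIST1H, HIST2H, HIST3H or HIST4H. These were 79 of the 22031 genes listed, of which 8 encode H1, 18 H2A, 23 H2B, 15 H3 and 15 H4, and 11 of the 79 are annotated as pseudogenes. The HIST1 group holds 59 of them, on chromosome 6 apart from 1 pseudogene on chromosome 13, HIST2 holds 16 and HIST3 holds 3, both on chromosome 1, and HIST4 holds 1, on chromosome 12. The 5 dNER lines (defective in nucleotide excision repair) carried an shRNA that targets 1 repair gene, XPA, XPC, ERCC4, ERCC5 or ERCC6 (shXPA to shERCC6), and the control line, shCTRL, carried a non-target shRNA. Each gene was targeted by 1 lentiviral construct, all lines were infected cells of the same parent, and 1 control line served all comparisons, so that an effect of a construct and one of its target cannot be told apart. With 3 biological replicates a line, 18 RNA libraries were sequenced. Values are TPM, which are shares of a library scaled per transcript length and keep no read depth. Each SD comes from the 3 replicates of a line, and the tests pool the spread over all 6 lines.

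Histone genes of this kind supply the core octamer (H2A, H2B, H3 and H4) and the linker histone H1 for newly copied DNA, and their mRNA is made mainly in S phase. Most lack introns, and the mRNA ends in a conserved stem-loop, bound by SLBP, in place of a poly(A) tail. Transcription of the clusters depends on NPAT, which cyclin E and CDK2 phosphorylate. Some genes of the family, among them HIST1H1C, HIST1H2AC, HIST1H2BC, HIST1H2BD, HIST1H2BK and HIST2H2BE, are known to make polyadenylated mRNA as well, including in cells that do not divide.

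The stem-loop is shown because it defines the class. A search of GENCODE release 29 transcripts (GRCh38) for the histone stem-loop, 16 bases with 6 paired positions around a loop of 4, found it in models of 30 of the 79 genes. Over the whole annotation 203 genes and 0.17% of 206694 transcripts had a match, so that the pattern is not limited to the 79. Of the 49 histone genes with no match, 33 are protein coding with a single model whose length divides into whole codons. A model of the coding sequence alone cannot hold the 3' end. The models were not compared with the coding sequence, and some are longer, such as that of HIST1H2AG with 2250 bases. Among the matches were HIST3H2A at chr1:228457369-228457384 on the minus strand, HIST1H2AC at chr6:26124669-26124684 on the plus strand, HIST1H2BD at chr6:26158587-26158602 on the plus strand and HIST1H4J at chr6:27824459-27824474 on the plus strand. They are written 5' to 3' in transcript sense, in DNA letters, with the 16 bases of the stem-loop in capitals.
HIST3H2A: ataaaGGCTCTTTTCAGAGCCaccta
HIST1H2AC: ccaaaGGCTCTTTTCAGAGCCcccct
HIST1H2BD: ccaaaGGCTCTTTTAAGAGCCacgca
HIST1H4J: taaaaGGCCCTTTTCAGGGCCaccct
The 30 genes used 4 versions of the stem-loop. The version of HIST3H2A and HIST1H2AC occurred in 17 genes (6 H2A, 8 H2B and 3 H3), and that of HIST1H2BD in 5 (3 H2B and 2 H3). The 8 H4 genes with a match had a GC-richer stem, with the HIST1H4J version in 5 and a second in 3. In 21 genes a model holding the stem-loop ran at least 100 bases past it, and in 9 every such model ended closer to it.

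Promoters were available from RefSeq (GRCh38.p14) for 58 of the 79 genes. The 150 bases before the annotated start are shown for 3 genes whose rises are described below, at chr1:228457874-228458023 (minus strand) for HIST3H2A, chr6:26124022-26124171 (plus strand) for HIST1H2AC and chr6:27823942-27824091 (plus strand) for HIST1H4J. Capitals mark TATAAA on the gene's strand, and CCAAT and the octamer ATTTGCAT on either strand.
HIST3H2A: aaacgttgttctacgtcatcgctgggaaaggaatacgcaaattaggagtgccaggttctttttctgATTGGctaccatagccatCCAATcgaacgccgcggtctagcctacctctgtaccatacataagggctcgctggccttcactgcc
HIST1H2AC: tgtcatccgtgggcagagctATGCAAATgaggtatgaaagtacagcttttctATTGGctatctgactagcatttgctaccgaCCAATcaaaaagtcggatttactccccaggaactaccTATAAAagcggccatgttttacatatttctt
HIST1H4J: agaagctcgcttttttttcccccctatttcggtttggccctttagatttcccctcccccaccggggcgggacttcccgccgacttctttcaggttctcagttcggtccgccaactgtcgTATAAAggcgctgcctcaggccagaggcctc
Over the 250 bases before the start, TATAAA was found in 60.3% of the histone promoters and in 7.17% of all 27305. CCAAT was found in 82.8% and 33.0%, in every H1, H2A, H2B and H3 promoter matched and in 16.7% of those of H4. The octamer was found in 32.8% and 1.66%, in 66.7% of the H2A and 66.7% of the H2B promoters and in none of the 12 H4 promoters. These are matches of letters, not sites of binding. The bases searched for genes that stand head to head, such as HIST2H2AC and HIST2H2BE, overlap, so that 1 match can count for both. The same bases are listed for an H2A gene and the H3 gene with an octamer. The shares of the classes are thus not independent.

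In shCTRL the 79 genes summed to 1312 ± 58.4 TPM (SD, n = 3), about 0.131% of the library, and 26 of them stood at 10 TPM or more, 31 at 1 to 10 TPM and 22 under 1 TPM. Over all 18 libraries 6 genes held 63.2% of the histone TPM, namely HIST3H2A, HIST2H2AA4, HIST1H2BK, HIST1H2AC, HIST1H2BD and HIST1H1C. The 6 genes known to be polyadenylated as well summed to 530.8 TPM in shCTRL. The study's methods state depletion of rRNA, and no library was compared here with one made by poly(A) selection.

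The filter of at least 1 TPM in at least 3 libraries left 64 histone genes and 16382 genes in all for tests. The 15 others, 4 of them pseudogenes, did not exceed 3.44 TPM in any library and had no group mean above 1.16 TPM. Among them was HIST1H1T, the testis linker histone, with 0.942 TPM in shCTRL. HIST2H3A and HIST2H3C held the same value in every library (within a relative tolerance of 0.001) and stand as 2 genes in all counts although they are 1 measurement. Copies with near-identical sequence share reads, which kallisto divides between them. Measured as 31-base words found in no other GENCODE gene, 22 of the 79 genes had under 50% of their sequence to themselves, and 7 had none.

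The labels were checked against the data. The targeted gene lay below all 3 shCTRL libraries in its own line, at 67.6% of its shCTRL level for XPA, 44.1% for XPC, 40.8% for ERCC4, 51.6% for ERCC5 and 44.0% for ERCC6. The basal epithelial markers KRT5, KRT14, KRT17, TP63, CDH1 and EGFR were at 8.84 TPM or more in every library. Of the luminal markers measured, GATA3 was listed at 9.04 to 27.0 TPM and FOXA1 at 1.61 to 7.59 TPM in every library, while ESR1 was under 1 TPM in 17 of 18 and KRT19 in all 18. Of 5 fibroblast markers, DCN and COL1A1 were above 5 TPM in every library and PDGFRA, PDGFRB and LUM at 1.55 TPM or less. Their sum was 214.2 to 229.4 TPM in shCTRL, 157.9 to 178.4 in shXPA and 85.7 to 139.2 in the other lines, and DCN was called lower in all lines except shXPA. The leukocyte genes PTPRC, CD68 and ITGAM summed to 29.97 to 40.7 TPM in shCTRL, 35.7 to 44.8 in shXPA and 11.7 to 23.5 in the other lines. CD68, a macrophage gene, was called lower in all lines except shXPA (-0.02), while ITGAM was called higher in all except shERCC4, most in shXPA (3.56), from 0 to 0.209 TPM in the shCTRL libraries to 4.19 to 7.85 TPM. The part of these genes in the results was not tested. In shERCC4 replicate 1, 1 clone-named entry, CTD-2328D6.1, took 26.4% of the library, against 3.44% to 7.58% in each other library, and the histone sum of that library was 769.9 TPM, against 1015 and 1181 TPM in the other shERCC4 replicates.

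Levels by class came first. The H2A sum stood higher than in shCTRL in shXPA, shXPC and shERCC5, while the H2B sum was lower than in shCTRL in all 5 lines. H2A genes summed to 451.6 ± 25.3 TPM in shCTRL, 757.3 ± 14.5 in shXPA, 679.6 ± 50.6 in shXPC and 694.4 ± 34.5 in shERCC5, and to 418.2 ± 119.1 in shERCC4 and 395.6 ± 43.0 in shERCC6. All libraries of the first 3 dNER lines lay above all shCTRL libraries, and those of shERCC4 and shERCC6 overlapped them. Without HIST3H2A the H2A sums of shXPC and shERCC5 overlapped shCTRL, that of shXPA lay above it at 1.41 times the shCTRL mean, and those of shERCC4 and shERCC6 lay below it at 0.707 and 0.634 times. With median-of-ratios scaling, described below, this sum lay above shCTRL in shXPA (1.78), shXPC (1.51) and shERCC5 (1.37), overlapped it in shERCC4 (0.941) and lay below it in shERCC6 (0.751). H2B genes summed to 454.3 ± 18.7 TPM in shCTRL and to between 235.9 ± 10.1 in shERCC6 and 382.0 ± 10.96 in shERCC5, with no overlap in any line. This rested in part on HIST1H2BK, the most abundant H2B gene. Without it, a variant chosen after seeing the data, the 22 other H2B genes summed to 214.1 ± 10.9 TPM in shCTRL and turned higher in shXPA, at 267.6 ± 22.7 TPM with no overlap. The sum of shERCC5 then overlapped shCTRL at 233.8 ± 8.38 TPM, and those of shXPC, shERCC4 and shERCC6 stayed below it at 0.836, 0.809 and 0.643 times the shCTRL mean. In these bulk libraries fewer cells that express a gene and less RNA per cell cannot be told apart.

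H4 went in both directions, with 171.6 ± 9.11 TPM in shCTRL, 234.9 ± 44.5 in shXPA and 197.1 ± 15.7 in shERCC5, but 134.2 ± 11.9 in shXPC, 140.4 ± 16.04 in shERCC4 and 104.9 ± 19.6 in shERCC6. H1 fell to 0.371 times its shCTRL sum in shERCC6 (120.6 to 44.8 TPM), and stood at 0.501 times in shERCC4, 0.569 in shERCC5, 0.827 in shXPC and 1.03 in shXPA. H3 stood at 0.594 times its shCTRL sum in shERCC6 and 0.601 in shXPC, and at 0.756 to 0.861 in the other lines. These sums are descriptions with no test. TPM are shares, and the median of all genes tested stood below shCTRL by 0.24 to 0.42 on the log2 scale in the lines. With median-of-ratios scaling, which moves that median to between -0.02 and 0.01, the ratios of the H2B sums became 1.05 in shXPA, 1.04 in shXPC and 1.06 in shERCC5 and stayed at 0.829 in shERCC4 and 0.615 in shERCC6. Without HIST1H2BK they were 1.57, 1.16 and 1.38 in shXPA, shXPC and shERCC5, 1.08 in shERCC4 and 0.762 in shERCC6. Those of H4 became 1.09 in shXPC and 1.10 in shERCC4, that of H1 1.16 in shXPC, those of H3 1.08 in shXPA, 1.01 in shERCC4 and 1.00 in shERCC5, and those of H2A 1.22 in shERCC4 and 1.04 in shERCC6. Every class other than H2A remained under its shCTRL sum in shERCC6 under both scalings.

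**Figure D1:**
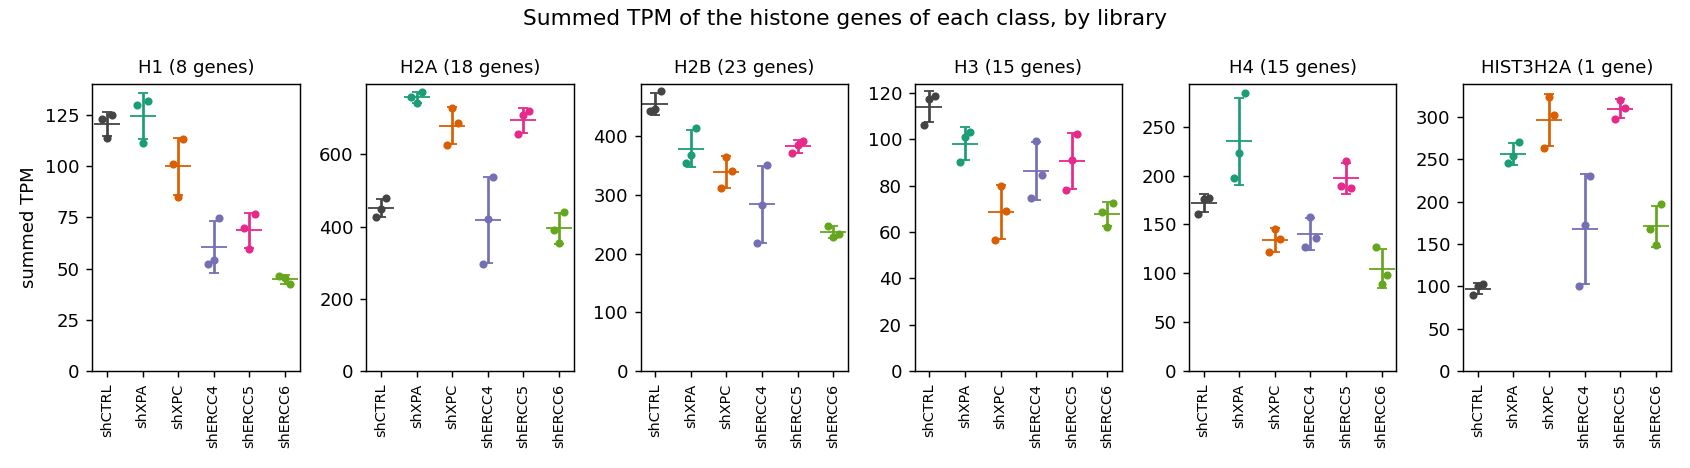
Summed TPM of the histone genes of each class, and TPM of HIST3H2A alone, in the 6 lines (linear axes starting at 0). Points are the 3 libraries of a line, and the bar and whiskers their mean and SD. The 3 shXPA libraries of H2A sit between 742.3 and 771.3 TPM, above the shCTRL libraries at 427.6 to 478.0 TPM, while every H2B library of the dNER lines lies below shCTRL.

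Each line was then compared with shCTRL gene by gene. The test was limma on log2(TPM + 0.5), and calls required a Storey q under 0.05 together with a fitted fold above 1.5. Fold changes on this scale understate the change of low genes. Against shCTRL, 13 of the 64 histone genes were higher in shXPA (11.9% of all genes tested) and 19 lower (30.9%). In shXPC 6 were higher (9.89% of all genes) and 24 lower (38.0%). In shERCC4 6 were higher (4.38%) and 11 lower (30.9%), and without replicate 1, the library with the large CTD-2328D6.1 share, these were 4 and 9. In shERCC5 8 were higher (9.97%) and 12 lower (28.3%). In shERCC6 3 were higher (6.52%) and 19 lower (19.7%). Full separation of the 3 libraries from all 3 shCTRL libraries was common among all genes, with 45.4% lying below in shXPA, 50.8% for shXPC, 46.2% for shERCC4, 46.6% for shERCC5 and 40.5% for shERCC6, and 16.2%, 12.8%, 5.19%, 15.1% and 13.9% above, against which separations named for single histone genes are to be read. As shares of the 64 genes the lower calls were 29.7% in shXPA, 37.5% in shXPC, 17.2% in shERCC4, 18.8% in shERCC5 and 29.7% in shERCC6, so that they lay under the share of all genes in shERCC4 and shERCC5, above it in shERCC6 and near it in the other lines. The higher calls were 20.3%, 9.38%, 9.38%, 12.5% and 4.69% in the same order.

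The median log2 fold change of the 64 genes, relative to that of all genes tested, was 0.28 in shXPA, -0.13 for shXPC, 0.23 for shERCC4, 0.09 for shERCC5 and -0.33 for shERCC6. With median-of-ratios scaling these relative medians were 0.21, -0.18, 0.18, 0.09 and -0.32. Not set against all genes, the median was -0.01 in shXPA, -0.55 in shXPC, -0.16 in shERCC4, -0.20 in shERCC5 and -0.56 in shERCC6, and with that scaling it turned positive in shXPA (0.21), shERCC4 (0.18) and shERCC5 (0.10). Over all settings tried the median ran from -0.20 (no filter) to 0.32 (filter of 5 TPM) in shXPA, from -0.69 to -0.17 in shXPC, from -0.30 (filter of 5 TPM) to 0.21 in shERCC4, from -0.26 to 0.10 in shERCC5 and from -0.62 to -0.26 in shERCC6. Leaving out 1 library of the line itself moved it to 0.0862 in shXPA (replicate 2), -0.23 in shERCC4 (replicate 1) and -0.10 in shERCC5 (replicate 1). The calls moved with the scaling. With median-of-ratios scaling shXPA had 25 histone genes higher (18.4% of all genes tested) and 10 lower (17.3%), shXPC 10 (18.2%) and 9 (16.2%), and shERCC4 10 (10.2%) and 6 (10.5%). In shERCC5 they were 12 (16.1%) and 4 (13.1%), and in shERCC6 4 (11.1%) and 16 (9.77%). All higher calls made on the deposited scale were kept, and of the lower calls 10 of 19, 9 of 24, 6 of 11, 4 of 12 and 16 of 19. The scaling raised the median of all genes by 0.22 to 0.42 on the log2 scale in the lines. Higher calls were thus likely to be kept and lower calls to be lost whatever the gene.

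For the mean of the 5 dNER lines, 4 histone genes were higher (7.84% of all genes tested) and 17 lower (28.6%), or 6.25% and 26.6% of the 64. The median log2 fold change was -0.30, against -0.33 over all genes, and 0.03 with median-of-ratios scaling, under which 10 genes were higher (13.6% of all genes) and 9 lower (12.2%). Over all settings it ran from -0.34 to 0.03. Each of the 5 lines shares the 3 shCTRL libraries, so that the lines are not independent views of the control.

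**Figure D2:**
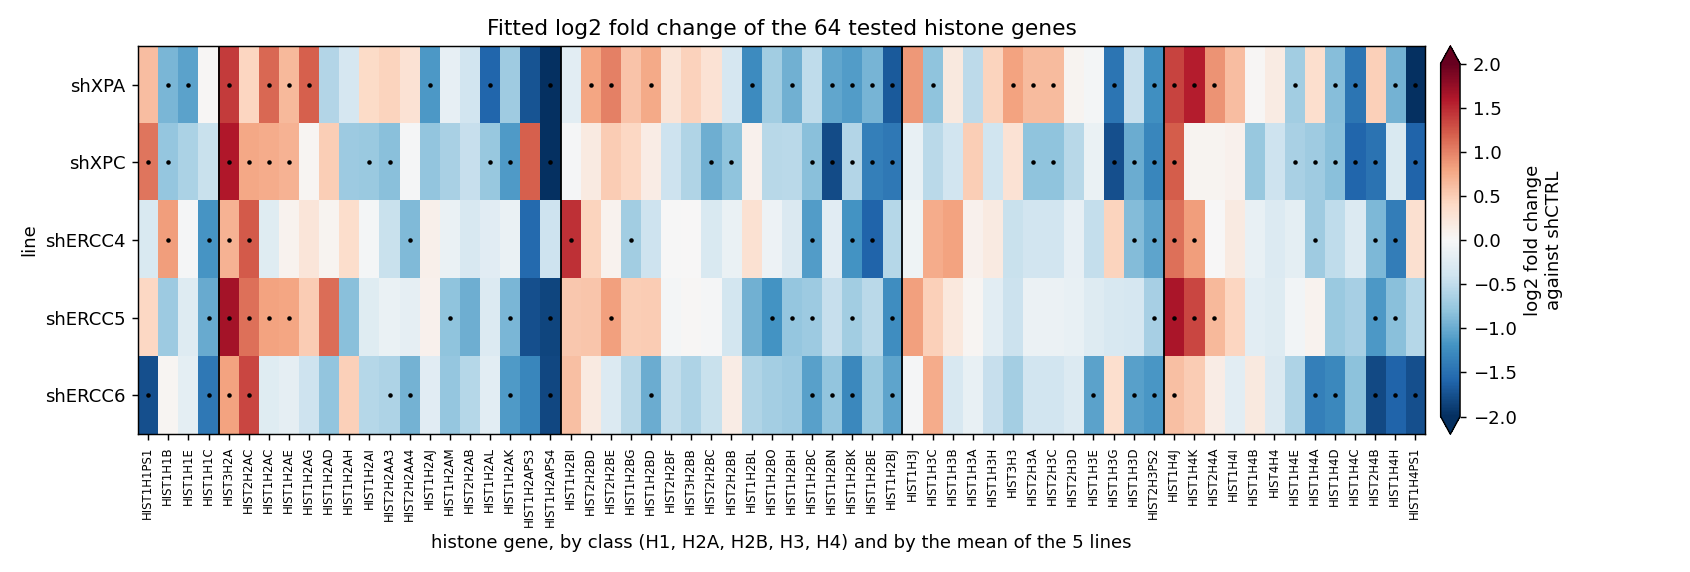
Fitted log2 fold change of the 64 tested histone genes (columns, by class and by the mean of the 5 lines) in each dNER line (rows) against shCTRL, with colour limited to -2 to 2 and a dot where a gene was called. HIST3H2A and HIST1H4J carry a dot and red in all 5 rows, and HIST1H2BK and HIST2H3PS2 a dot and blue in all 5.

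HIST3H2A, an H2A gene on chromosome 1 from 228456979 to 228457873 on the minus strand, had the highest mean TPM of the histone genes over all 18 libraries and rose in every line. In shCTRL it stood at 97.5 TPM, after HIST1H2BK at 240.2, HIST2H2AA4 at 191.3 and HIST1H1C at 105.3 TPM. Its libraries held 89.5, 100.4 and 102.5 TPM in shCTRL, 245.0, 253.6 and 270.3 in shXPA, 263.2, 323.8 and 302.5 in shXPC, and 297.7, 320.0 and 310.5 in shERCC5. In shERCC6 they held 167.4, 149.04 and 196.6 TPM, and in shERCC4 100.4, 172.4 and 230.5. All libraries of 4 lines lay above all shCTRL libraries, and the lowest of shERCC4, replicate 1, lay within their range. The log2 fold changes were 1.39 in shXPA, 1.60 in shXPC, 0.70 in shERCC4, 1.66 in shERCC5 and 0.80 in shERCC6, each with a standard error of 0.20 and with q from 1.08e-06 to 0.00278 (limma). They were larger with median-of-ratios scaling, from 1.04 in shERCC6 to 2.07 in shXPC. Of its 31-base words 95.6% occur in no other GENCODE gene. The annotation behind the deposited values is not given, so the sharing of reads in them was not tested.

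HIST1H4J, an H4 gene on chromosome 6 from 27824108 to 27824480, was the other gene called higher in all 5 lines (2.01% of all genes tested were). Its libraries held 8.57, 12.5 and 13.2 TPM in shCTRL, 20.8, 23.4 and 51.6 in shXPA and 38.1, 38.1 and 31.7 in shERCC5. The log2 fold change ranged from 0.61 (q = 0.0293) in shERCC6 to 1.63 (q = 2.21e-05) in shERCC5. Only 17.8% of its 31-base words are its own and 0% of those of HIST1H4K, the H4 gene on the opposite strand from 27831216 to 27831527, so the division of reads between both is uncertain. Their sum depends less on how reads are divided between the 2 genes. It is not free of that division, since TPM are scaled by length and the models hold 373 and 312 bases. The sum stood at 23.3 ± 3.98 TPM in shCTRL, 65.6 ± 15.2 in shXPA, 64.6 ± 7.52 in shERCC5, 45.0 ± 2.82 in shERCC4, 38.2 ± 2.84 in shXPC and 33.3 ± 2.32 in shERCC6. All libraries of each dNER line lay above all shCTRL libraries for this sum.

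HIST2H2AC, an H2A gene of the HIST2 group, rose in 4 lines from a low level. It held 3.64, 3.21 and 2.91 TPM in shCTRL, 9.96, 7.86 and 7.25 in shERCC4, and 9.42, 8.92 and 8.42 in shERCC6. The log2 fold change was 1.33 (q = 6.9e-05) in shERCC6, 1.23 in shERCC4, 1.10 in shERCC5 and 0.78 in shXPC, and 0.43 (q = 0.0347) in shXPA, where the fold was too small for a call. Under median-of-ratios scaling all 5 lines were called. Of the 31-base words of HIST2H2AC, 49.4% are its own and 45.8% also occur in other histone genes. HIST1H2BI, an H2B gene among the 5 most positive for the mean of the lines, was near the floor of the table, with 0, 0.287 and 0 TPM in shCTRL and 1.55, 1.85 and 0.345 TPM in shERCC4, the 1 line in which it was called.

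HIST1H2BK, the most abundant histone gene of shCTRL and 1 of the genes that can be polyadenylated, fell in all 5 lines (9.53% of all genes tested did). Its libraries held 236.6, 234.4 and 249.6 TPM in shCTRL, 102.5, 109.3 and 120.01 in shXPA, 145.9, 146.4 and 152.1 in shERCC5 and 99.0, 97.3 and 98.2 in shERCC6. The log2 fold change was -1.12 in shXPA, -0.59 in shXPC, -1.19 in shERCC4, -0.69 in shERCC5 and -1.29 in shERCC6, with q from 1.74e-05 to 0.00275. Every dNER library lay below every shCTRL library. With median-of-ratios scaling the values kept their sign and those of shXPC (-0.11) and shERCC5 (-0.36) were no longer called. Its reads are shared, with 13.7% of its 31-base words its own and 80.9% also found in genes outside the histone list.

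HIST2H3PS2, an H3 copy of chromosome 1 that GENCODE lists as protein coding, was the second gene lower in all 5 lines. It held 36.5, 38.7 and 41.7 TPM in shCTRL and 11.9 to 29.3 TPM in every dNER library, with log2 fold changes from -1.30 in shXPC to -0.67 in shERCC5. With median-of-ratios scaling shERCC5 lost the call at -0.34. None of its 31-base words is its own, and all of them also occur in genes outside the histone list.

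Among H4 genes, HIST1H4H fell in 4 lines and HIST2H4B in 4. HIST1H4H held 17.8, 29.1 and 28.7 TPM in shCTRL, 9.43, 7.96 and 10.1 in shERCC4 and 9.92, 5.02 and 9.26 in shERCC6, with log2 fold changes of -1.38 and -1.61. In shXPC it stood at 18.2, 17.3 and 25.1 TPM and was not called (-0.30, q = 0.0817). HIST2H4B held 14.9 to 17.3 TPM in shCTRL, 5.19, 5.33 and 6.12 in shXPC and 24.0, 24.8 and 20.6 in shXPA, so that it lay below the control in shXPC (-1.48, q = 3.04e-07) and above it in shXPA (0.48, q = 0.00678, under the fold threshold). HIST1H4H lost its call in shERCC5 (-0.50) and HIST2H4B in shERCC4 (-0.49) with median-of-ratios scaling, under which HIST2H4B was called higher in shXPA (0.80). HIST2H4B shares 97.2% of its 31-base words with other histone genes. Summed with its copy HIST2H4A it stood at 29.9 ± 3.83 TPM in shCTRL, 48.1 ± 4.72 in shXPA, 19.0 ± 1.91 in shXPC and 18.8 ± 0.392 in shERCC6, with no overlap with shCTRL in these 3 lines. The sums of shERCC4 and shERCC5 overlapped shCTRL. HIST1H4A, with 69.5 ± 9.20 TPM in shCTRL the most abundant H4 gene there, fell to 29.8 ± 17.2 TPM in shERCC6 (-1.37, q = 9.29e-04) and was also called lower in shXPC and shERCC4. With median-of-ratios scaling these other calls were lost (-0.24 in shXPC and -0.29 in shERCC4), that of shERCC6 held (-1.13), and shXPA was called higher (0.665).

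HIST1H1C, which encodes the linker histone H1.2 and held most of the H1 sum, separated the lines. Its libraries held 100.4, 103.5 and 112.1 TPM in shCTRL, 105.98, 96.2 and 119.7 in shXPA, and 37.0, 46.2 and 58.0 in shERCC4. In shERCC5 they held 51.1, 49.1 and 57.2 TPM, and in shERCC6 38.9, 39.1 and 37.7. The groups of shERCC4, shERCC5 and shERCC6 lay wholly below shCTRL, with log2 fold changes of -1.18, -1.001 and -1.44, and shXPA overlapped it (0.02, q = 0.291). In shXPC the value was -0.45 (q = 0.00189), under the fold threshold. The 3 calls held with median-of-ratios scaling. HIST2H2AA4, an H2A gene of the HIST2 group with 2.81% of its words to itself, was summed with its copy HIST2H2AA3. The sum was 217.5 ± 25.5 TPM in shCTRL and lay wholly above it in shXPA (269.97 ± 14.6) and wholly below it in shERCC4 (124.5 ± 31.8) and shERCC6 (116.2 ± 12.98), with overlap in shXPC and shERCC5.

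The other genes that can be polyadenylated did not move as a block. HIST1H2AC held 91.7, 82.2 and 78.5 TPM in shCTRL and rose to 188.6, 183.7 and 186.6 in shXPA (log2 fold change 1.15, q = 2.23e-05), with calls also in shXPC (0.74) and shERCC5 (0.80), and stood at -0.24 in both shERCC4 and shERCC6, where it was not called. HIST2H2BE, an H2B gene, rose in shXPA (10.2 ± 0.713 to 20.99 ± 2.07 TPM, log2 fold change 1.01) and shERCC5 (18.3 ± 0.887 TPM, 0.82). HIST1H2BD rose in shXPA (69.8 ± 6.77 to 118.8 ± 16.6 TPM, 0.76) and fell in shERCC6 (34.9 ± 1.73 TPM, -0.99). HIST1H2BC, whose start lies 219 bases from that of HIST1H2AC, fell in 4 lines, from 21.2 ± 2.64 TPM to 9.46 ± 1.07 in shERCC4 (-1.12) and 9.75 ± 1.46 in shERCC6 (-1.08). Of the 6 genes, shXPA had 3 higher and 1 lower, shXPC 1 and 2, shERCC4 0 and 3, shERCC5 2 and 3, and shERCC6 0 and 4. The shares of all genes higher and lower were 11.9% and 30.9%, 9.89% and 38.0%, 4.38% and 30.9%, 9.97% and 28.3%, and 6.52% and 19.7% in that order. The median log2 fold change of the 6 was 0.39, -0.15, -0.77, -0.09 and -1.03 in that order, against -0.10, -0.56, -0.13, -0.20 and -0.52 for the 58 other histone genes tested. With median-of-ratios scaling the medians of the 6 were 0.72, 0.33, -0.35, 0.24 and -0.79.

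**Figure D3:**
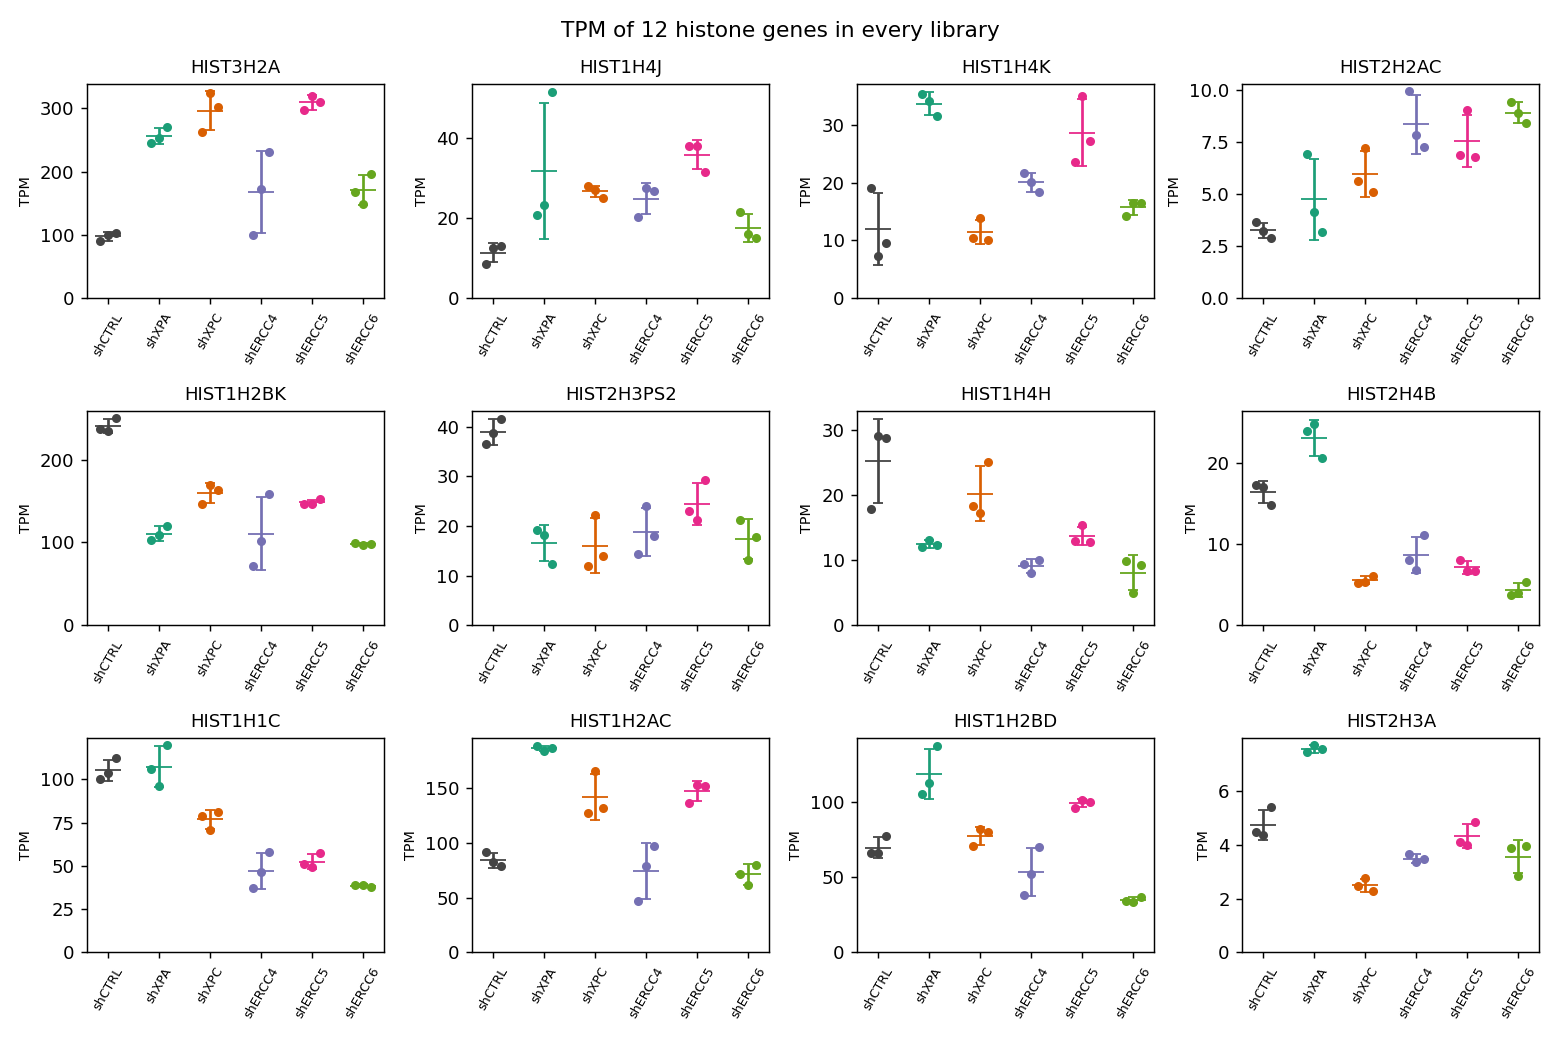
TPM of 12 histone genes in every library (linear axes starting at 0). Points are libraries, and bars and whiskers the mean and SD of 3. The top row holds the 4 genes called higher for the mean of the 5 lines, the middle row 4 called lower, and the bottom row 4 whose level set lines apart, such as HIST1H1C at 37.7 to 39.1 TPM in shERCC6 and 96.2 to 119.7 TPM in shXPA.

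The lines differed from each other in most histone genes. In limma's F test among the 5 dNER lines, which does not use shCTRL as a reference, 48 of the 64 genes differed (75.0%, against 55.7% of all genes tested) at a q under 0.05 and a range above 1.5-fold. Without shERCC4 replicate 1 this count was 41. Called in no line were 14 of the 64 genes (21.9%, against 30.9% of all genes). Called higher in at least 1 line and lower in at least 1 other were 5 genes (7.81%, against 2.55% of all genes), of which HIST2H3A and HIST2H3C are 1 measurement.

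HIST2H3A, an H3 gene of the HIST2 group, held 4.49, 4.36 and 5.40 TPM in shCTRL, 7.45, 7.71 and 7.57 in shXPA and 2.47, 2.76 and 2.27 in shXPC. Neither line overlapped shCTRL, with log2 fold changes of 0.63 (q = 5.85e-04) and -0.81 (q = 5.42e-05). HIST1H1B, the linker histone H1.5, was low throughout, with 1.59, 0.231 and 0.513 TPM in shCTRL and 3.31, 0.730 and 1.35 TPM in shERCC4, where it was called higher (0.83, q = 0.0401), and under 0.4 TPM in every shXPA and shXPC library, where it was called lower (-0.92 and -0.77). Its libraries in shERCC4, shXPA and shXPC each overlapped those of shCTRL. HIST1H1PS1, a pseudogene with 12.7% of its words to itself, stood at 20.7 ± 7.95 TPM in shXPC, 9.57 ± 3.69 in shCTRL and 2.53 ± 1.16 in shERCC6. With median-of-ratios scaling the lower calls of HIST1H1B and of HIST2H3A were lost (-0.39 for HIST2H3A in shXPC), and those of HIST1H1PS1 and HIST1H2BD in shERCC6 were kept.

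Genomic groups were set side by side. In shXPA, where 11.9% of all genes tested were higher and 30.9% lower, 6 of the 45 HIST1 genes tested were higher and 18 lower, with a median log2 fold change of -0.52. Of the 15 HIST2 genes 5 were higher and 1 lower in shXPA, with a median of 0.43. With median-of-ratios scaling (18.4% and 17.3% of all genes) 13 HIST1 genes were higher and 9 lower in shXPA, and 10 HIST2 genes were higher and 1 lower, with medians of -0.35 and 0.71. The other lines had HIST1 and HIST2 medians of -0.56 and -0.56 (shXPC), -0.13 and -0.30 (shERCC4), -0.26 and -0.12 (shERCC5), and -0.62 and -0.38 (shERCC6), so that their order was not the same in all lines. With median-of-ratios scaling they were -0.18 and -0.26, 0.19 and 0.12, -0.0157 and 0.18, and -0.45 and -0.16. The difference between the groups was not tested, and several HIST2 genes are copies of each other. HIST4H4, the 1 gene of its group, was called in no line, with 12.3 ± 1.65 TPM in shCTRL and 9.44 to 14.2 TPM as line means, and HIST3H2BB, the H2B gene of the HIST3 group, was called in none, with 1.33 to 3.39 TPM. HIST3H3, the testis H3 gene, was called higher in shXPA (1.64 ± 0.678 to 3.12 ± 0.538 TPM, log2 fold change 0.81, q = 0.0395).

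The 5 most negative values for the mean of the lines were -2.25 for HIST1H2APS4, -1.20 for HIST1H4PS1, -1.19 for HIST1H2BJ, -1.09 for HIST2H3PS2, described above, and -1.04 for HIST1H2BE. HIST1H2APS4, a transcribed H2A pseudogene, held 10.4, 14.2 and 7.94 TPM in shCTRL and 0, 3.90 and 0 in shXPA, 0, 1.74 and 0 in shXPC and 1.77 to 3.53 TPM in the libraries of shERCC5 and shERCC6, with no overlap with shCTRL in these 4 lines. In shERCC4 it held 9.71, 11.2 and 4.36 TPM and was not called. HIST1H2BJ, an H2B gene, held 9.52, 8.52 and 10.2 TPM in shCTRL and 1.11 to 6.98 TPM in every dNER library, with calls in all lines except shERCC4, and with median-of-ratios scaling it kept these calls. HIST1H2BE fell from 3.08 ± 0.919 TPM to 0.687 ± 0.320 in shERCC4 (-1.60), and the processed pseudogene HIST1H4PS1 was listed at 0 in all shXPA libraries against 1.98, 3.83 and 1.07 TPM in shCTRL.

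H2A and H2B genes often stand head to head and share the region between their starts. Within 1 kb, 15 head-to-head pairs of histone genes were found in the annotation, with 124 to 954 bases between starts, and both genes were tested in 12. The pairs hold 29 genes, since HIST1H2BO is paired with the H2A gene HIST1H2AM and with the H3 gene HIST1H3J, the 1 pair that is not of H2A and H2B, and both of these pairs are among the 12. The partners differed in level by a median of 6.04-fold in shCTRL and by over 5-fold in 8 pairs. HIST3H2A and HIST3H2BB, 234 bases apart, held 97.5 and 2.25 TPM, and HIST1H2BK and HIST1H2AH, 331 bases apart, held 240.2 and 1.05 TPM.

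The calls of partners were then compared. Both had the same sign in 8 of the 12 pairs in shXPA, 7 in shXPC, 6 in shERCC4, 7 in shERCC5 and 7 in shERCC6. In shXPA 8 of the 12 pairs had 1 gene called and 0 had both called in the same direction, and in shXPC, shERCC4, shERCC5 and shERCC6 the pairs with 1 gene called were 9, 7, 6 and 8, and those with both called in the same direction 0, 0, 2 and 0. HIST1H2BC fell and HIST1H2AC rose in shXPC (-0.83 and 0.74) and shERCC5 (-0.73 and 0.80). In shXPA HIST1H2BJ fell (-1.67) while its partner HIST1H2AG, 292 bases away, rose (1.20), from 2.41, 2.11 and 1.88 TPM in shCTRL to 5.57, 5.28 and 5.81. The lower call of HIST1H2BC was lost with median-of-ratios scaling in both lines (-0.36 in shXPC and -0.40 in shERCC5), and that of HIST1H2BJ in shXPA held (-1.36). The median gap between the partners' log2 fold changes, without its sign, over the 12 pairs was 0.71 to 0.89 on the log2 scale in the 5 lines. No test of the gaps was made, and a call of 1 partner without the other does not show that they differ.

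**Figure D4:**
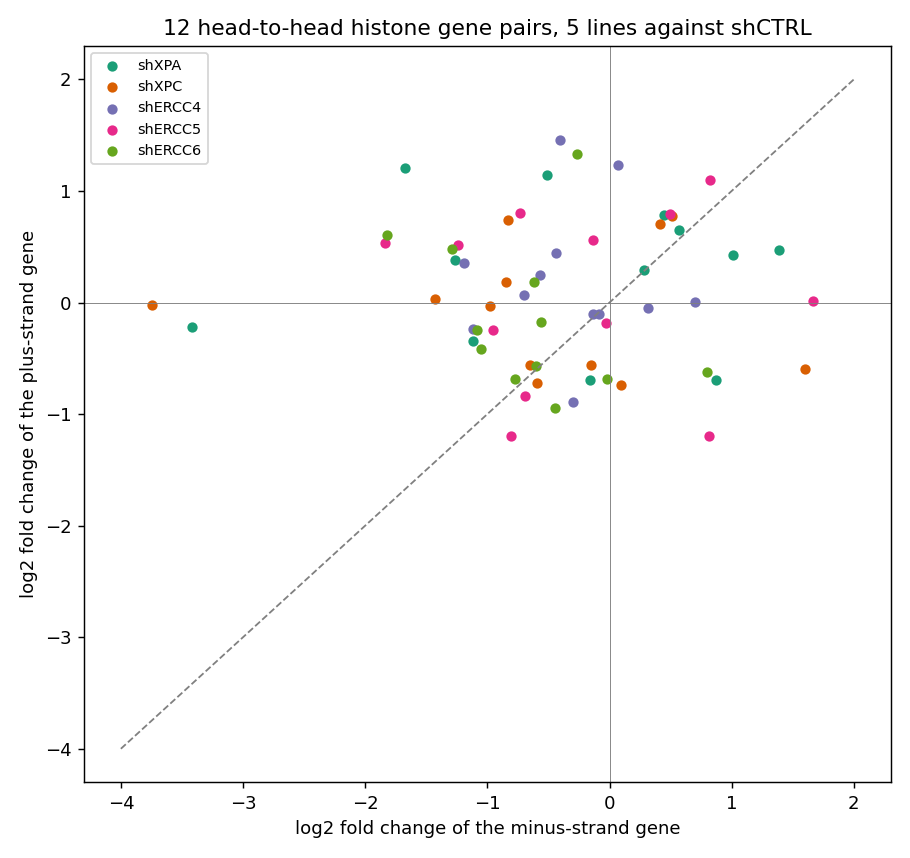
Log2 fold change against shCTRL of the plus-strand gene against that of the minus-strand gene in 12 head-to-head histone gene pairs, with 1 point per pair and dNER line. The dashed line marks equal change. Points lie on both sides of it, and the pair of HIST1H2APS4 and HIST1H2BI lies farthest away, by 3.72 in shXPC.

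Transcript models gave a further grouping. Of the 20 tested genes with a model running at least 100 bases past the stem-loop, 6 were higher and 6 lower in shXPA, of the 9 whose models with a stem-loop all ended nearer to it 4 and 1, and of the 35 with no stem-loop in their models 3 and 12 (11.9% and 30.9% of all genes). In shXPC the counts were 2 and 8, 2 and 2, and 2 and 14 (9.89% and 38.0%), and in shERCC4 1 and 5, 1 and 1, and 4 and 5 (4.38% and 30.9%). In shERCC5 they were 4 and 4, 2 and 0, and 2 and 8 (9.97% and 28.3%), and in shERCC6 1 and 4, 1 and 3, and 1 and 12 (6.52% and 19.7%). Levels differed too, with a median of 10.3, 9.98 and 2.03 TPM in shCTRL over all genes of the 3 groups, so that the groups also differ in how precisely they were measured.

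Genes that make, process and deposit histones were set beside the histone genes. Of 29 S phase genes tested, 0 were higher in any line, and the lower ones numbered 28 for shXPA, 26 for shXPC, 19 for shERCC4, 27 for shERCC5 and 11 for shERCC6 (30.9%, 38.0%, 30.9%, 28.3% and 19.7% of all genes were lower). With median-of-ratios scaling these were 27, 25, 11, 23 and 8. Their median log2 fold change was -2.48, -1.99, -0.75, -1.38 and -0.47 in that order, and -2.16, -1.54, -0.33, -1.06 and -0.23 with that scaling. CDC6, which loads the replicative helicase, went from 43.6 TPM in shCTRL to 2.4 in shXPA and 21.5 in shERCC6, and TYMS, which makes dTMP, from 140.0 to 21.3 and 71.5. The histone sum, 1312 ± 58.4 TPM in shCTRL, was 1593 ± 96.7 in shXPA, 1321 ± 94.5 in shXPC, 988.8 ± 206.97 in shERCC4, 1433 ± 61.7 in shERCC5 and 848.9 ± 60.1 in shERCC6, or 1.21, 1.01, 0.754, 1.09 and 0.647 times shCTRL, and 1.53, 1.40, 1.002, 1.38 and 0.766 times with median-of-ratios scaling. Without HIST3H2A the histone sum was 1.10, 0.843, 0.676, 0.925 and 0.558 times shCTRL in the same order. With median-of-ratios scaling it was then 1.38, 1.17, 0.901, 1.17 and 0.661 times. The line with the lowest S phase median, shXPA, had the highest histone sum and that with the median nearest 0, shERCC6, the lowest. On the deposited scale shXPC, second lowest in S phase median, had a lower sum than shERCC5. No correlation is given over 5 lines that share a control.

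Of 20 histone mRNA factors tested, 0 were higher in any line. The lower ones numbered 13 for shXPA, 15 for shXPC, 7 for shERCC4, 11 for shERCC5 and 5 for shERCC6 (30.9%, 38.0%, 30.9%, 28.3% and 19.7% of all genes were lower). With median-of-ratios scaling 0 were higher and 7, 7, 4, 4 and 2 lower in that order, where 17.3%, 16.2%, 10.5%, 13.1% and 9.77% of all genes were. SLBP, which binds the stem-loop, held 73.9 TPM in shCTRL and fell by 1.497 on the log2 scale in shXPA, by 1.28 in shXPC, by 0.74 in shERCC4, by 1.09 in shERCC5 and by 0.59 in shERCC6. CDK2 and CCNE2 (cyclin E2) fell in every line, by 2.20 and 2.79 in shXPA and by 1.02 and 1.18 in shERCC6. NPAT held 11.8 TPM in shCTRL and 7.0 to 9.9 TPM as line means, with log2 fold changes from -0.72 in shXPC, the 1 line in which it was called, to -0.25 in shXPA.

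Of 20 histone chaperones, 15 were lower in shXPA, 18 in shXPC, 8 in shERCC4, 16 in shERCC5 and 4 in shERCC6 (30.9%, 38.0%, 30.9%, 28.3% and 19.7% of all genes), with 0 higher. With median-of-ratios scaling the lower ones were 11, 9, 4, 7 and 3 (17.3%, 16.2%, 10.5%, 13.1% and 9.77%), with 0 higher. ASF1B, which hands H3 and H4 to the replication fork, stood at 38.8 TPM in shCTRL and 2.0 in shXPA, CHAF1A, a subunit of the assembly factor CAF-1, at 40.4 and 7.7, and HJURP, the chaperone of CENPA, at 45.9 and 1.3. Among 11 replacement histones, which are made outside S phase as well, shXPA had 5 lower and 1 higher, shXPC 6 and 1, shERCC4 2 and 0, shERCC5 3 and 1, and shERCC6 1 and 0. The higher one was H1F0 in all 3 lines, the linker histone H1.0 of cells that do not divide, at 24.9 ± 1.12 TPM in shCTRL, 51.6 ± 7.83 in shXPA (log2 fold change 1.02), 43.4 ± 1.21 in shXPC (0.79) and 44.3 ± 3.75 in shERCC5 (0.81). In shERCC4 and shERCC6 it was not called (-0.28 and -0.34). Of all genes tested 11.9%, 9.89% and 9.97% were higher in shXPA, shXPC and shERCC5, and the shares lower are those given for the chaperones. Rescaled by median of ratios, the replacement histones had 4 lower and 1 higher in shXPA, 3 and 2 in shXPC and 0 and 1 in shERCC4. They had 2 and 4 in shERCC5 and 0 and 3 in shERCC6. Of all genes 18.4%, 18.2%, 10.2%, 16.1% and 11.1% were then higher in that order. H2AFX, the H2A variant phosphorylated at DNA breaks, stood at 145.5 TPM in shCTRL, 22.8 in shXPA and 90.7 in shERCC6, CENPA, the centromeric H3, at 25.6, 1.4 and 21.7, and H2AFY (macroH2A) at 292.9, 163.8 and 278.2. Under median-of-ratios scaling the list medians of the factors and chaperones stayed below 0 in all 5 lines, and that of the replacement histones turned positive in shERCC4, shERCC5 and shERCC6.

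**Figure D5:**
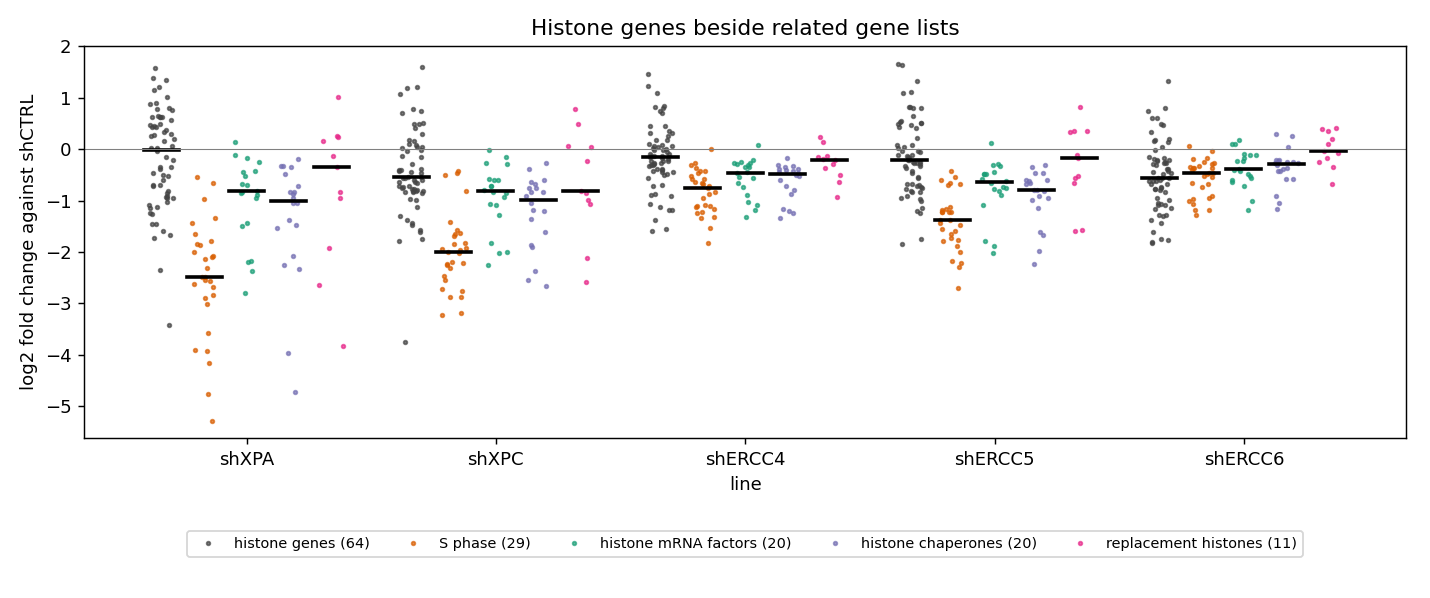
Log2 fold change against shCTRL in each dNER line of the 64 histone genes and of 4 related gene lists. Points are genes and black bars medians. In shXPA the histone median lies at -0.01 and the S phase median at -2.48, and in shERCC6 at -0.56 and -0.47.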

How the data were processed

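RNA of 6 MCF-10A lines (3 biological replicates each) was depleted of rRNA and sequenced by the authors. The deposited values are TPM per gene symbol from kallisto, version 0.43.1 per the labels' processing notes and a later one in the methods, on hg38. The transcript annotation is not given in the sources used here, nor is how transcripts were summed. TPM keep no read depth, so the depth of each library, counting intervals and detection limits could not be given, and each library sums to 999214 to 999484.

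Tests used R 4.3.3 and limma 3.58.1 on log2(TPM + 0.5) for genes that reached 1 TPM in 3 or more libraries, with 1 coefficient per line, a mean-variance trend and 12 residual degrees of freedom, over all 16382 genes. Storey's q used lambda 0.5. A call needed a q under 0.05 and a fold above 1.5. A q comes from the spread between replicates within lines. The pipeline was tested on simulated data. Figures used Python 3.11.15 and matplotlib 3.10.9. GENCODE release 29 (GRCh38, the build hg38) gave positions, transcripts and the 31-base words, and matched all 79 histone symbols.

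The histone genes and the gene lists were chosen with earlier results of these data known. Genes were named by rule: per class the 3 with the highest shCTRL mean, the 5 most positive and 5 most negative for the mean of the lines, those called in opposite directions, those that can be polyadenylated, those of HIST3 and HIST4, the germline gene HIST1H1T, and from other lists SLBP, NPAT and up to 3 genes by q. HIST1H2AG, HIST1H2AH, HIST1H2AM, HIST1H2BO, HIST1H3J, HIST2H2AA3, HIST2H4A and H1F0 were added as partners, copies or examples after their values were seen. The settings varied were a pseudocount of 0.1 or 1, a filter of 5 TPM or none, scaling by median of ratios or by quantiles, leaving out genes above 2% of a library, Benjamini-Hochberg adjustment, separate fits, a replicate block and leaving out each library. The H2B sum without HIST1H2BK was added after seeing the data.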

Additional observations from a re-analysis of the deposited data

Results flagged for a closer look

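These results were singled out because the 5 dNER lines differed from each other by limma's F test on the fitted line means, at a q under 0.05. Over all histone genes tested this held, with a range above 1.5-fold, for 48 of 64 (75.0%, against 55.7% of all genes tested). The genes below are those named by rule, some of them chosen for calls in opposite directions or extreme values, so that their number is no result. Values are the range between the highest and lowest of the 5 fitted line means, on the log2(TPM + 0.5) scale.

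Among linker histone genes the range was 1.46 for HIST1H1C, 2.82 for the pseudogene HIST1H1PS1 and 1.75 for HIST1H1B. Among H2A genes it was 0.96 for HIST3H2A, 1.24 for HIST2H2AA4, 1.39 for HIST1H2AC, 0.90 for HIST2H2AC and 3.34 for the pseudogene HIST1H2APS4, whose libraries in shXPA and shXPC were mostly listed at 0.

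Among H2B genes the range was 0.69 for HIST1H2BK, 1.74 for HIST1H2BD, 1.26 for HIST2H2BC, 1.28 for HIST2H2BE, 0.61 for HIST1H2BC, 1.11 for HIST1H2BJ, 1.06 for HIST1H2BE, 1.68 for HIST1H2BI and 1.09 for HIST3H2BB. The last was called against shCTRL in no line.

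Among H3 genes it was 0.63 for HIST2H3PS2, 1.03 for HIST1H3E, 0.91 for HIST1H3H, 1.49 for HIST3H3 and 1.43 for HIST2H3A, with the same value for HIST2H3C. HIST1H3E, at 21.01 ± 4.91 TPM in shCTRL, was called in shERCC6 (9.87 ± 3.07 TPM), and HIST1H3H, at 17.5 ± 2.87 TPM, in no line. Among H4 genes it was 1.71 for HIST1H4A, 1.31 for HIST1H4H, 2.29 for HIST2H4B, 1.02 for HIST1H4J, 1.53 for HIST1H4K and 2.67 for the pseudogene HIST1H4PS1.

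Single outlying libraries were not looked for within lines of 3 libraries.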

How the results depend on the processing

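With median-of-ratios scaling the histone genes higher and lower were 25 and 10 (shXPA), 10 and 9 (shXPC), 10 and 6 (shERCC4) and 10 and 9 for the mean of the lines, while in shERCC5 the lower ones were 4. With quantile normalization the higher ones were 24 in shXPA and 5 in shERCC6, and higher and lower were 10 and 9 in shXPC, 11 and 6 in shERCC4 and 9 and 8 for the mean, with 4 lower in shERCC5. In shXPA the lower genes were 10 with a filter of 5 TPM and 11 with Benjamini-Hochberg adjustment. The share of all genes called is given here only for the deposited scale and median-of-ratios scaling. Counts under the other settings, including those with a library left out, therefore do not set histone genes apart from other genes. The class sums of the mean of the lines over shCTRL, 0.660 for H1, 1.30 for H2A, 0.712 for H2B, 0.721 for H3 and 0.946 for H4, became 0.857, 1.68, 0.918, 0.927 and 1.22 with median-of-ratios scaling. By construction median-of-ratios scaling brings the median of all genes, which lay below shCTRL in each dNER line, to near 0. The cause of the other changes was not tested.

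For the mean of the lines, 9 measurements changed sign, which on the deposited scale were -0.35 for HIST2H2AA4, -0.29 for HIST2H2BC, -0.21 for HIST2H3A and HIST2H3C (1 measurement), -0.21 for HIST4H4, -0.15 for HIST3H2BB, -0.0895 for HIST1H3H, -0.0913 for HIST3H3, 0.00931 for HIST1H1PS1 and 0.00332 for HIST1H2BD. With median-of-ratios scaling and quantile normalization HIST2H2BC was at 0.0647 and 0.0958, HIST1H3H at 0.26 and 0.30, HIST2H3A and HIST2H3C at 0.111 and 0.0903, HIST3H2BB at 0.14 and 0.11, HIST3H3 at 0.17 and 0.11 and HIST4H4 at 0.13 and 0.17. HIST2H2AA4 was at 0.0143 with the former. With a pseudocount of 0.1 TPM HIST1H1PS1 was at -0.0148. Leaving out each library gave -0.26 to 0.28 for HIST1H1PS1, -0.0389 to 0.0815 for HIST1H2BD, -0.22 to 0.0135 for HIST1H3H and -0.39 to 0.0625 for HIST3H3.

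Leaving out each library gave 10 to 15 higher and 14 to 20 lower histone genes for shXPA, 5 to 7 and 17 to 27 for shXPC, 4 to 8 and 9 to 13 for shERCC4, 7 to 10 and 8 to 13 for shERCC5, 2 to 4 and 16 to 22 for shERCC6, 3 to 6 and 15 to 21 for the mean, and 41 to 50 that differ among the lines.

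The labels do not say whether a shared replicate number pairs libraries, and the check made here cannot settle it. The median correlation of deviations was 0.00704 for the same number and -0.00144 for others, and 9 of 18 libraries correlated best with their own number. With a replicate block the higher and lower genes were 14 and 19 in shXPA and 3 and 20 in shERCC6, 49 differed among the lines, and the other counts were those given in the report. TPM hold no depth, so that low genes listed at 0 cannot be told from genes missed by sampling.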
